A study of Mus musculus with 2 samples.

Results

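The 8 genes described here mark the secretory and ciliated cells of the airway lining and their defence proteins: Scgb1a1, Scgb3a1, Scgb3a2, Cyp2f2, Foxj1, Spdef, Reg3g and Bpifa1. They were read in a map of EP300 binding in newborn mouse lung. An EP300 peak was given to a gene when its summit lay inside the gene, or when the gene's start site was the nearest of any protein-coding gene and within 100 kb. By this rule 21 of the 43988 reproducible peaks belonged to the 8 genes, which were 8 of 21827 protein-coding genes. The nearest start site is an assignment by position, not a measured contact.

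Chromatin immunoprecipitation with an EP300 antibody, followed by sequencing, was done on whole lung of B6NCrl mice at postnatal day 0. There were 2 libraries, called biological replicates 1 and 2, and they form 1 group with no second age, genotype or treatment. The labels tie both to a single donor entry and a single biosample entry, with no sex recorded. What differs between them may therefore be technical in part or in whole. A control experiment that the labels give as possible was not analysed here. No read counts came with the peak lists, so the depth is unknown and no interval is given for any value.

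EP300 is an acetyltransferase that has no DNA sequence preference of its own and is brought to enhancers and promoters by transcription factors, where it acetylates histones. In the mouse airway, club cells secrete secretoglobins and carry enzymes that oxidise inhaled chemicals, goblet cells make mucus, and ciliated cells move the mucus along. These cells line the conducting airways, while most of the lung's cells lie in the alveoli, vessels and mesenchyme.

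EP300 peaks of the airway genes were gathered at Scgb1a1, which encodes the main secreted protein of club cells. Scgb1a1 had 16 peaks, 76.2% of the 21, and the other 7 genes together had 5. Cyp2f2 had 3 of these, and Scgb3a1 and Spdef had 1 each. Scgb3a2, Foxj1, Reg3g and Bpifa1 had 0. A peak was thus present at 4 of the 8 genes, or 50%, beside 47.1% of all protein-coding genes. A promoter peak, with its summit within 1 kb of the gene's own start site, was present at 1 of 8, beside 20.5% of all. As many peaks as at Scgb1a1, or more, were found at 1.04% of all genes, whose mean was 1.65 peaks (SD 3.22 over genes). In whole lung, a site bound in few cells and a site bound weakly in many cells cannot be told apart.

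**Figure D1:**
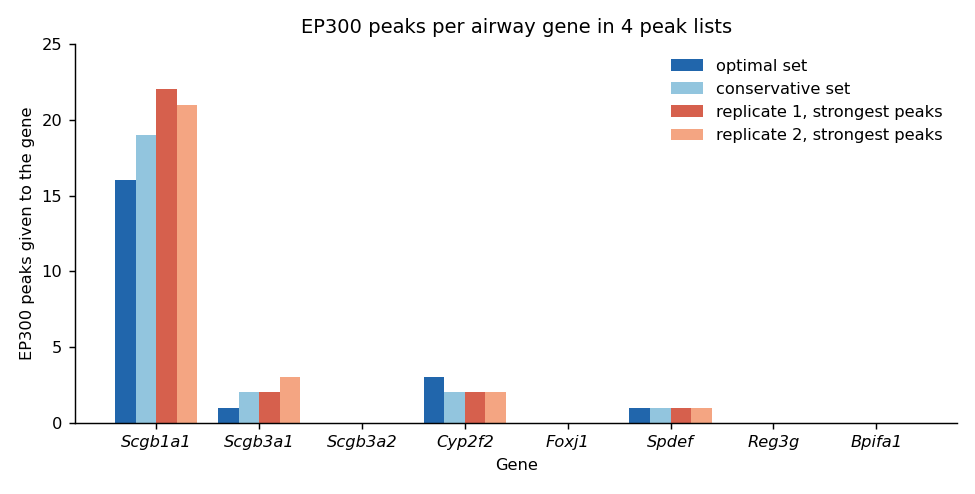
Number of EP300 peaks given to each of the 8 airway genes (vertical axis, 1 group of bars per gene), with 1 bar each for the optimal set, the conservative set and the strongest 43988 peaks of each library. Scgb1a1 stands at 16 to 22 in the 4 lists and no other gene exceeds 3.

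The contrast was present in each list of peaks. Scgb1a1 had 16 peaks in the optimal set, 19 in the conservative set, 22 among the strongest 43988 peaks of replicate 1 and 21 among those of replicate 2. Cyp2f2 had 3, 2, 2 and 2 in the same order, Scgb3a1 had 1, 2, 2 and 3, and Spdef had 1 in each. The other 4 genes had 0 in all 4 lists, so the genes with a peak and the genes without one were the same throughout. Of the 21 optimal peaks, 20 were also in the conservative set and 19 were among the strongest of both libraries. A summit within 100 bp was found in the whole list of replicate 1 for 20 peaks and in that of replicate 2 for 21.

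Genes of lung and of other tissues were read in the same map, beside the 47.1% of all genes with a peak. All 8 lung genes looked at had one, with a median of 12.5 peaks, led by Hopx and Sftpb with 18 each. A liver list and a heart list each had a peak at 1 of 5 genes, Apoa1 and Tnnt2. A neuronal list had a peak at 4 of 5 genes, with a median of 2, led by Gad2 and Neurod1 with 4 each. The share of genes with a peak was thus above that of all genes in the neuronal list too, and does not by itself mark the tissue.

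Scgb1a1 lies on the minus strand of chr19:9083636-9087958 (mm10), between Ahnak, which encodes a very large scaffold protein, and Asrgl1, which encodes an asparaginase. Its 16 peaks were spread over the ground on both sides and lay a median of 18.6 kb from its start site. There were 13 downstream of the start and 3 upstream, and none lay inside the gene's own 4.32 kb, where the pooled list of 300000 peaks had none either. Introns of Ahnak held 10 of the 16. A further 3 lay in the 6.72 kb between Ahnak and Scgb1a1, and the last 3 lay in the 21.9 kb from the Scgb1a1 start to the end of Asrgl1.

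**Figure D2:**
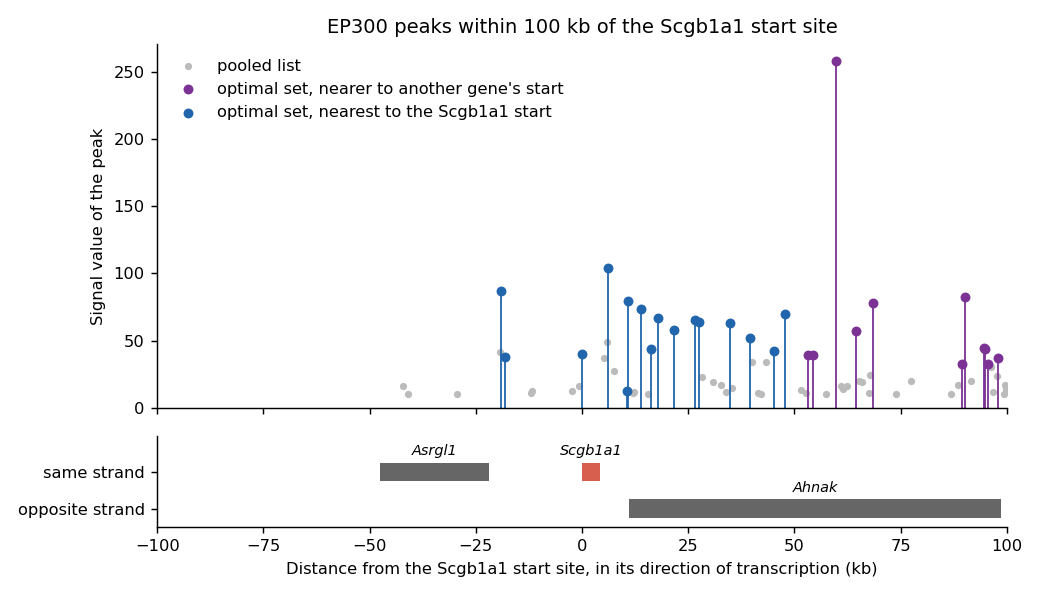
EP300 peaks around Scgb1a1, by distance from its start site in its direction of transcription in kb (horizontal axis) and deposited signal (vertical axis), with the gene bodies of Ahnak, Scgb1a1 and Asrgl1 drawn to scale. Blue points are optimal peaks given to Scgb1a1, purple points those nearer to another gene's start and grey points peaks of the pooled list. Optimal peaks run through Ahnak into the gap before Scgb1a1, where the highest of the Scgb1a1 peaks stands at 104, and no optimal peak lies in the bodies of Scgb1a1 or Asrgl1.

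Peaks stood at a like density on both sides of the border between the territories of Ahnak and Scgb1a1. The 49.3 kb of Ahnak nearer to the Ahnak start held 11 peaks, or 2.23 per 10 kb, with a median signal of 44.1. The 38.3 kb of Ahnak nearer to the Scgb1a1 start held 10 peaks, or 2.61 per 10 kb, with a median of 63.7. The gap between the genes had the highest density, 4.46 per 10 kb, and the stretch upstream of Scgb1a1 had 1.37. Each of these densities rests on 3 peaks, and in the gap the weakest, with a signal of 12.3, overlaps another. The highest signal of the Ahnak body, 258 at rank 454 of the optimal set, was in the part nearer to the Ahnak start.

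The border that hands peaks from Ahnak to Scgb1a1 is the midpoint between the start sites, and so is set by distance alone. The last peak given to Ahnak, chr19:9034457-9034880 with a signal of 39, was 45.4 kb from the Ahnak start and 53.3 kb from the Scgb1a1 start. The first given to Scgb1a1, chr19:9039905-9040328 with a signal of 70.2, was 47.8 kb from the Scgb1a1 start. Ahnak itself was given 14 peaks, 1 of them at its promoter, and Asrgl1 was given 0. Without the peaks inside Ahnak, Scgb1a1 had 6 peaks in the optimal set, 8 in the conservative set and 9 in each library. The share of all genes with 6 or more peaks was not counted. The 1.04% of genes given above is for 16 peaks and does not hold for this lower count. All 10 of the peaks inside Ahnak lie in introns of the long Ahnak transcript and beyond the end of the short one.

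The 5 strongest Scgb1a1 peaks carry the pattern, since they include the gap, the far upstream stretch and the Ahnak introns. Their central 100 bp are printed on the plus strand of mm10, with matches to the searched sequences in capitals.
Scgb1a1 gap, 6.2 kb downstream, chr19:9081709-9081808: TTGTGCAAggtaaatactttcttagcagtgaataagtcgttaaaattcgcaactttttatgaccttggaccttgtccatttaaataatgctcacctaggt
Scgb1a1 upstream, 19 kb, chr19:9106900-9106999: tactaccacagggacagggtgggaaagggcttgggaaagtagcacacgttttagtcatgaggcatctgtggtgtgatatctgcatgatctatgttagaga
Scgb1a1 past the Ahnak end, chr19:9077093-9077192: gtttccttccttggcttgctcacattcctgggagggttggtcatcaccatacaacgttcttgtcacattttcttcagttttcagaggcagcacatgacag
Scgb1a1 in an Ahnak intron, 13.8 kb downstream, chr19:9074126-9074225: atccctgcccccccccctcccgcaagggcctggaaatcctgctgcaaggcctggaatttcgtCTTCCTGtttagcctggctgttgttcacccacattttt
Scgb1a1 in an Ahnak intron, 47.8 kb downstream, chr19:9040067-9040166: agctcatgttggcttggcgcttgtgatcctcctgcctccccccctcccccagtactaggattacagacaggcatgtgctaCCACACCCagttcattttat
The capitals mark the CEBP letters TTGCNNAA in the first, on the minus strand, the ETS letters CNGGAAG in the fourth, on the minus strand, and the KLF letters CCACNCCC in the fifth, on the plus strand.

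The strongest Scgb1a1 peak, chr19:9081547-9081970, had a signal of 104 in the optimal set and stood at rank 6071. It lay 1.88 kb past the 3′ end of Scgb1a1 and 4.84 kb past that of Ahnak. Its signal was 58 at rank 6413 in replicate 1 and 43.2 at rank 6734 in replicate 2, so it held nearly the same place in both. The signal values are the authors' own and rank peaks only within a list.

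The next peak, chr19:9106738-9107161, was the one far upstream, 2.92 kb from the end of Asrgl1, with a signal of 86.7 at rank 8638. Replicate 1 gave it 54.4 and replicate 2 gave it 34. The peak 0.228 kb past the Ahnak end, chr19:9076931-9077354, had 79.3 at rank 10181, with 43 and 35.6 in the libraries. In the Ahnak introns, the peak at 13.8 kb had 73.8 with 33.9 and 37.3, and the peak at 47.8 kb had 70.2 with 35.2 and 34.8. The 16 peaks stood at ranks from 6071 to 43390, and none was in the strongest 10% of the optimal set.

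The only promoter peak among the 8 genes was at Scgb1a1, and it was weaker than most of the gene's other peaks. It covered chr19:9087844-9088267 with its summit 98 bp upstream of the start site, and had a signal of 39.7 at rank 28422. Replicate 1 gave it 24.7 at rank 27044 and replicate 2 gave it 18.2 at rank 28680. These values were below the median of each list, which was 48.5 in the optimal set, 28.4 in the strongest peaks of replicate 1 and 21.8 in those of replicate 2. The weakest of the 16, chr19:9077162-9077585, had 12.3 at rank 43390 and overlapped the stronger peak past the Ahnak end. It had no summit within 100 bp in replicate 1 and a signal of 16.3 in replicate 2.

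**Figure D3:**
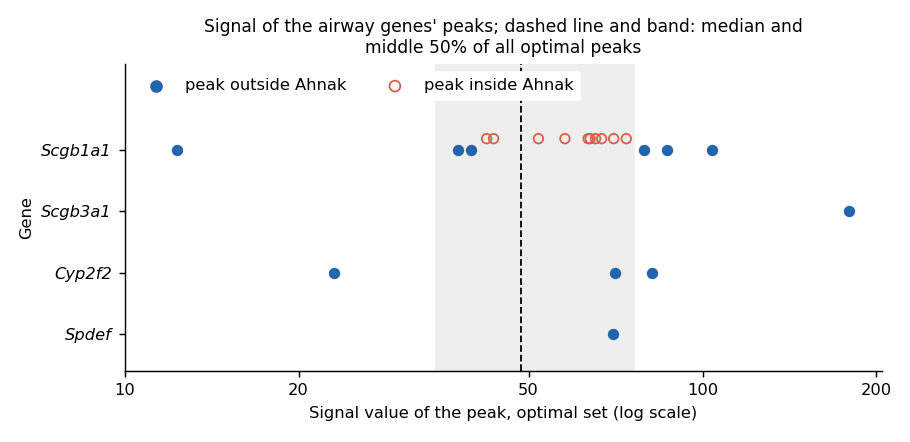
Deposited signal of each of the 21 peaks of the airway genes in the optimal set (horizontal axis, log scale), 1 row per gene with a peak. The dashed line is the median of all optimal peaks (48.5), the band their middle 50%, and peaks inside Ahnak have their own colour. The Scgb1a1 peaks spread from 12.3 to 104 around that line, and the single Scgb3a1 peak stands highest at 179.

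Signal at Scgb1a1 ran from 12.3 to 104 with a median of 63.7, and 11 of the 16 peaks were above the median of all optimal peaks. The 10 peaks inside Ahnak ran from 42.3 to 73.8 with a median of 63.7, and the 6 outside from 12.3 to 104 with a median of 59.5. The peaks inside Ahnak therefore covered a narrow middle range, and both the strongest and the weakest lay outside. The Scgb1a1 median was 1.31 times that of all optimal peaks. At the same sites in the libraries it was 1.24 times the list's median in replicate 1 (35.2 over 15 sites, beside 28.4) and 1.08 times in replicate 2 (23.5 over 16 sites, beside 21.8). With every Scgb1a1 peak among the strongest of each library, 22 and 21, the ratios were 1.06 and 1.02. The libraries may be repeats of 1 sample, so these are values of each library and not an error between animals.

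Scgb3a1 and Cyp2f2 are the other secretory genes with peaks, and Spdef is the factor that directs goblet cells. Their 4 stronger peaks are shown, so that the DNA of the other members can be read beside that of Scgb1a1. The central 100 bp are again on the plus strand of mm10, with matches in capitals.
Scgb3a1, 5.36 kb upstream, chr11:49658204-49658303: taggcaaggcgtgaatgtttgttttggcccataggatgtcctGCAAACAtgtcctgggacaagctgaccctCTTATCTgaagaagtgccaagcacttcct
Cyp2f2, 1.57 kb upstream, chr7:27118290-27118389: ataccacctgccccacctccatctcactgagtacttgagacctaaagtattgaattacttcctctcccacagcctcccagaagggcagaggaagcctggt
Cyp2f2, 8.65 kb upstream, chr7:27111210-27111309: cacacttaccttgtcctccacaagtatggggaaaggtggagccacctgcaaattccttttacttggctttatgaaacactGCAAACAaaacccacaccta
Spdef, 31.4 kb upstream, chr17:27760311-27760410: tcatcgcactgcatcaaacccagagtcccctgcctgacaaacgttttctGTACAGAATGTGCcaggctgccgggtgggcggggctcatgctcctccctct
In the Scgb3a1 peak the capitals mark a forkhead (FOX) match, the letters TGTTTGC on the minus strand, and a match to the GATA factor site AGATAAG on the minus strand. The Cyp2f2 peak at 8.65 kb holds the same FOX letters on the minus strand, and the Cyp2f2 peak at 1.57 kb holds none of the searched sequences. In the Spdef peak they mark a glucocorticoid receptor (GR) element, GNACA and TGTNC spaced by 3 bases.

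The Scgb3a1 peak was the strongest of the 21. Scgb3a1 encodes a small secreted protein of club and goblet cells and lies on the plus strand of chr11:49663610-49665118. Its peak, chr11:49658042-49658465, had a signal of 179 at rank 1491, within the top 3.39% of the optimal set. Replicate 1 gave it 113 at rank 1059 and replicate 2 gave it 64.4 at rank 2695. It lay between Flt4, a receptor gene of lymphatic vessels, and Scgb3a1, 5.51 kb past the Flt4 end and 5.36 kb upstream of the Scgb3a1 start. Scgb3a1 thus had 1 peak, stronger than each of the 16 at Scgb1a1.

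Cyp2f2 encodes the club cell enzyme that activates naphthalene, and lies on the plus strand of chr7:27119909-27133660. All 3 of its peaks were upstream. The nearest, chr7:27118128-27118551, had 81.7 at rank 9668, with 46.7 and 37.4 in the libraries. The next in strength, chr7:27111048-27111471, had 70.7, with 50.3 in replicate 1 and 21.9 in replicate 2. Those 2 peaks were in the optimal and conservative sets and among the strongest of both libraries, whereas the third was weak. It covered chr7:27112118-27112541, had 23 at rank 41048 and was absent from the conservative set, and its ranks in the libraries were 62889 and 62937.

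Spdef lies on the minus strand of chr17:27714352-27728955. Its 1 peak, chr17:27760149-27760572, had 70 at rank 12612, with 41.4 and 28.1 in the libraries. It was in an intron of D17Wsu92e, 31.4 kb upstream of the Spdef start. The nearest start site of any annotated gene was that of the pseudogene Rps2-ps9, at 24 kb, so the link to Spdef holds only among protein-coding genes.

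**Figure D4:**
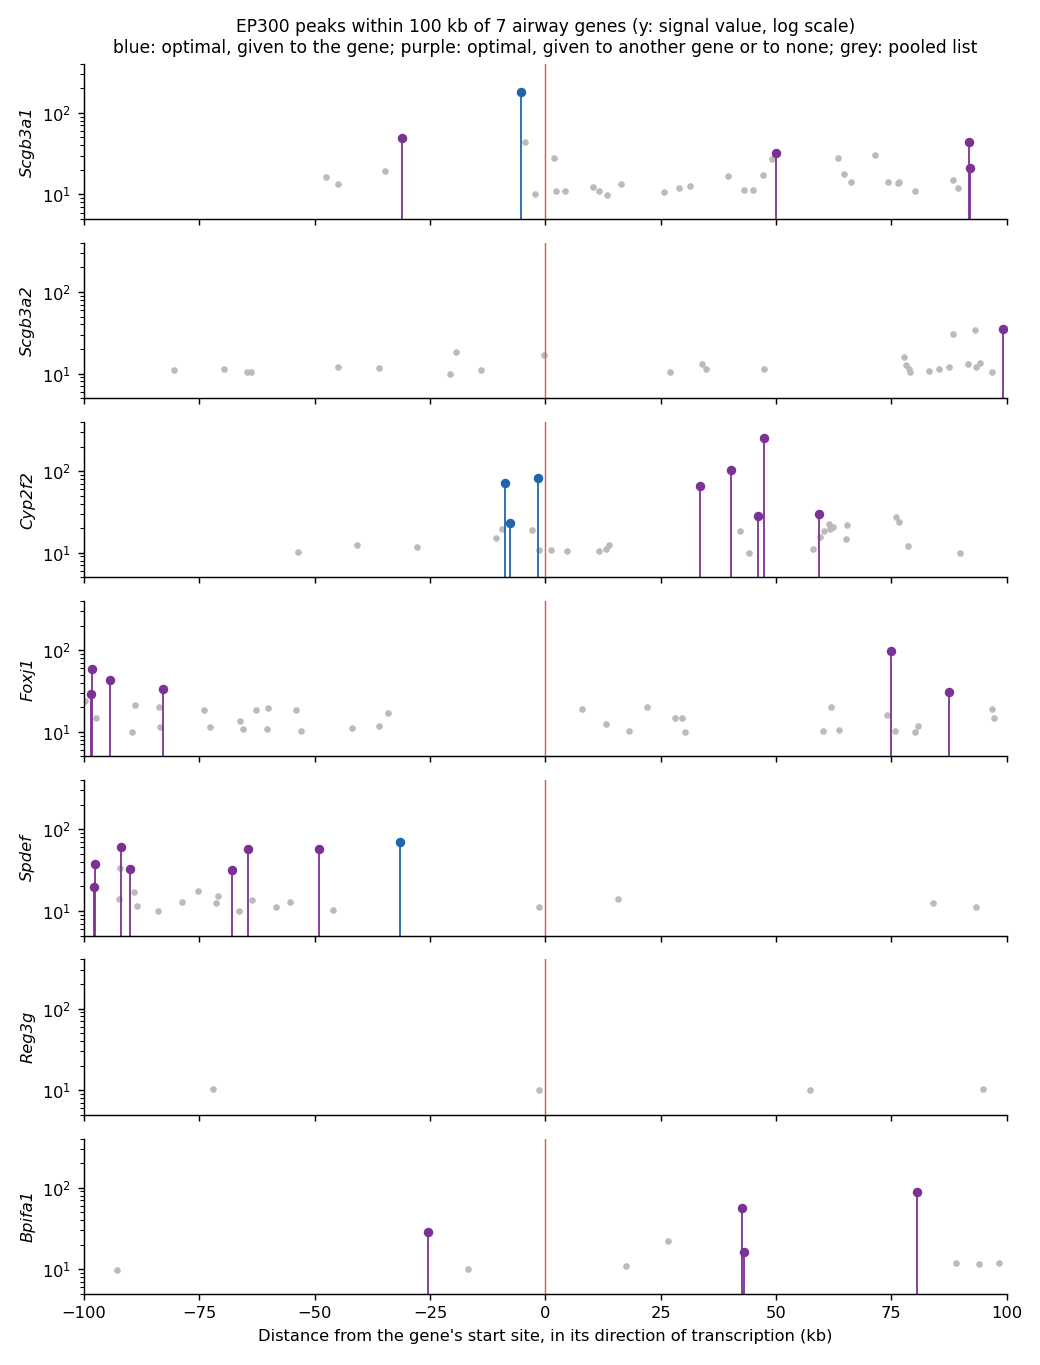
EP300 peaks within 100 kb of the other 7 airway genes, by distance from each gene's start site in its direction of transcription in kb (horizontal axis) and deposited signal (vertical axis, log scale). Blue points are optimal peaks given to the gene, purple points other optimal peaks and grey points peaks of the pooled list. Scgb3a1 has its strong peak 5.36 kb upstream, Cyp2f2 has its 3 peaks upstream too, and Reg3g has no optimal peak in the window.

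The promoters of Scgb3a1 and Cyp2f2 had no peak within 1 kb of the start, although peaks stood upstream. Their RefSeq promoter windows (GRCm38.p6) are printed on the plus strand, on which both genes lie, so that they can be read beside the peaks.
Scgb3a1 promoter, chr11:49663345-49663644: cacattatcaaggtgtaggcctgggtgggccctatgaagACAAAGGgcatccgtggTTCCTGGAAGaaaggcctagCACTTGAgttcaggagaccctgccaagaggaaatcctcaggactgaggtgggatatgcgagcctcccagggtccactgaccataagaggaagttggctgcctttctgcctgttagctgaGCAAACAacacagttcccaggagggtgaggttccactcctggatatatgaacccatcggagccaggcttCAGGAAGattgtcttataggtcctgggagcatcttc
Cyp2f2 promoter, chr7:27119705-27120004: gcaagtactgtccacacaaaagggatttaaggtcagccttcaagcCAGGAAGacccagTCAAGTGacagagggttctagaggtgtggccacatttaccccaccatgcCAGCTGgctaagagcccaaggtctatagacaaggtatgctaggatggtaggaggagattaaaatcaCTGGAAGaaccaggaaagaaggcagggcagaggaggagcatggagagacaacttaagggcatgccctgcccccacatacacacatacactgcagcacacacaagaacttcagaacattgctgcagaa
The capitals mark matches to 5 of the searched sequences in Scgb3a1 (FOX, NKX2, ETS, SOX and STAT, with STAT and ETS sharing bases) and to 3 in Cyp2f2 (NKX2, ETS and E-box). Both hold NKX2 letters, CACTTGA or CACTCAA, as 6.22% of all 32817 promoter windows do. ETS letters were in 31.9% of all windows and FOX letters in 8.47%. The table also had the windows of Spdef and Reg3g, with ETS letters only, and of Bpifa1, with the AP-1 letters TGACTCA, as 5.2% of windows do.

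The sequences searched were 16, on both strands of the central 100 bp of each peak. Besides those spelled above they were TEAD (CATTCCA), GRHL (AACCNGTT), RFX (GTTGCCA), SOX (CCTTTGT), CREB (TGACGTCA), STAT (TTCCNGGAA), the E-box (CAGCTG), FOX also as TGTTTAC, and NFI by its name. A match to at least 1 was found in 12 of the 21 peaks. The share of all optimal peaks with at least 1 match was not counted, so the 12 cannot be set beside it. The median GC content of the 21 was 47%, as over all optimal peaks. FOX letters were in 0 of the 16 Scgb1a1 peaks and in 2 of the other 5, beside 8.81% of all peaks, and the GR element was in 0 and 1, beside 2.17%. GATA letters were in 0 and 1, beside 3.23%. In the central 200 bp, FOX letters were in 1 of the 16 and 3 of the other 5, beside 14.8% of all peaks.

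At Scgb1a1, CEBP letters were in 2 of 16 peaks, beside 8.7% of all peaks, AP-1 letters in 1, beside 5.94%, and ETS letters in 1, beside 16.2%. TEAD letters were in 2, beside 4.63%, SOX letters in 2, beside 2.84%, and KLF letters in 2, beside 4.54%. None of these 6 was in the 5 peaks of the other genes, and the counts are of 1 or 2 peaks each. In the central 200 bp, CEBP letters were in 2 of the 16 and 1 of the 5, beside 14.7% of all peaks. ETS letters were in 3 and 1, beside 26.6%. TEAD letters were in 3 and 0, beside 7.72%, and AP-1 letters in 3 and 0, beside 10.1%. SOX letters were in 2 and 0, beside 5.6%, and KLF letters in 4 and 0, beside 8.97%. In the central 100 bp, NKX2, GRHL, RFX, CREB, STAT, NFI and E-box letters were in none of the 21. Their shares of all peaks were 5.15%, 1.03%, 1.45%, 0.403%, 1.54%, 0.0409% and 8%, in that order. In the central 200 bp, E-box letters were in 1 of the 16, beside 15% of all peaks. A match describes letters and is not a site shown to be bound, and a window without a match says only that those letters are not there.

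The 4 genes without a peak differed in what lay near them. Scgb3a2 encodes a further secretoglobin of club cells and lies on the plus strand of chr18:43764289-43767399. Its best peak in the pooled list was at its own promoter, 220 bp from a start site, but had only 16.7 at rank 94163 of 300000. The nearest optimal peak was 99.2 kb away, at 35.4. The best peak given to it was taken in each library on its own, without matching of the sites. It had 16.2 at rank 46809 in replicate 1 and 7.31 at rank 128240 in replicate 2. Neither was among the strongest 43988.

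Foxj1 encodes the forkhead factor that switches on the genes of motile cilia, and lies on the minus strand of chr11:116330704-116335399. It had 4 peaks in the pooled list, the best with 19.3 at rank 76074 and 7.95 kb away, and 6 optimal peaks of other genes within 100 kb. The nearest of those was 74.9 kb away inside Srp68, with 97.8. Bpifa1, on the plus strand of chr2:154142880-154149219, encodes a secreted protein of the upper airway. It had no pooled peak in its territory of 16.1 kb, the shortest of the 8, and 1 peak in each library's whole list, at ranks 250895 and 178316. The nearest optimal peak, at 25.4 kb with 28.4, went to its neighbour Bpifa3.

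Reg3g, on the minus strand of chr6:78466269-78468872, encodes a secreted lectin that kills bacteria. It was the only one of the 8 with no optimal peak of any gene within 100 kb. Within 50 kb, Scgb3a2 and Foxj1 had none either. The optimal peak nearest to Reg3g was 2759 kb away. Its best pooled peak had 10.4 at rank 257895, 72 kb off. In the pooled list the 4 genes had 7 peaks in all, namely 4 at Foxj1, 2 at Reg3g, 1 at Scgb3a2 and 0 at Bpifa1, beside 36 at Scgb1a1, 14 at Cyp2f2, 10 at Scgb3a1 and 3 at Spdef.

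The territories of the 8 genes differed in length. A gene's territory is the ground nearer to its start site than to any other within 100 kb, with a median of 47.4 kb over all genes. Scgb1a1 had 73.2 kb and 2.19 peaks per 10 kb, Spdef had 67.7 kb and 0.148, Cyp2f2 had 62.3 kb and 0.481, and Scgb3a1 had 51.7 kb and 0.193. Of the genes without a peak, Reg3g had the longest territory of the 8, 121 kb, Foxj1 had 53.1 kb, and Scgb3a2 and Bpifa1 had the shortest, 27.7 and 16.1 kb. Within 100 kb of the start, counting peaks of every gene, Scgb1a1 had 27 optimal peaks, a number that 0.706% of genes reach. Its neighbour Ahnak had more, 32, and Asrgl1 had 16, so the high count is not particular to Scgb1a1. Cyp2f2 and Spdef had 8 each, a number that 28.8% of genes reach, and Reg3g had 0. The median gene had 4, and 6 of the 8 had at least as many.

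**Figure D5:**
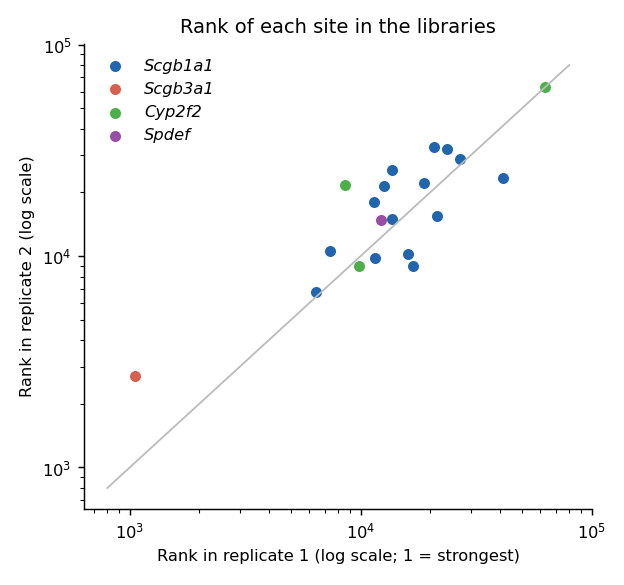
Rank of each airway gene peak in replicate 1 and replicate 2 (horizontal and vertical axis, log scales, where 1 is the strongest), for the peaks with a summit within 100 bp in both libraries. The Scgb3a1 peak is the strongest in both, at 1059 and 2695, and the weak Cyp2f2 peak the weakest, at 62889 and 62937.

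Genes with a pattern like that of Scgb1a1 were sought by count and territory. Besides Scgb1a1, 43 genes had exactly 16 peaks. The 3 whose territories were closest in length were Tubd1 (69.5 kb), B4galt1 (81.1 kb) and Igf2r (86.1 kb). Their median signals were 59.8, 59.5 and 43.7, beside 63.7 at Scgb1a1. Their strongest peaks had 201, 279 and 127, beside the lower 104 at Scgb1a1. B4galt1 had 2 promoter peaks where Tubd1 and Igf2r had 0.

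Lists of airway cell genes, which hold the 8 genes too, were read beside the shares of all genes. These were 47.1% with a peak and 20.5% with a promoter peak. Of 20 club cell genes, 13 had a peak and 6 a promoter peak, with a median of 2 peaks, led by Scgb1a1 with 16 and Aldh1a1, a retinal dehydrogenase gene, with 9. Of 10 goblet cell genes, 3 had a peak, Creb3l1 with 4, Agr2 with 3 and Spdef with 1. Of 25 ciliated cell genes, 13 had a peak and 4 a promoter peak, led by Tppp3 with 6 and the dynein gene Dnah5 with 4. The goblet share, 30%, was the lowest of these, and the ciliated share, 52%, was near that of all genes.

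The further lists are likewise to be read beside the 47.1% of all genes with a peak. Among other airway cells, 7 of 10 basal cell genes had a peak, led by Dapl1 with 15 and Icam1 with 7. Of 10 neuroendocrine genes 5 had one, led by Cxcl13 with 6 and Uchl1 with 2. Of 14 defence and gland genes 10 had one, led by Lyz1 and Sftpd with 5 each, while Reg3g and Bpifa1 of the same list had 0. All 18 genes for factors known to act on Scgb1a1 or in secretory cells had a peak, with a median of 7 and 175 in all. Jun led with 24 and Hes1, a target of Notch signalling, followed with 19. At the low end Sox2 had 1, and Foxa1 and Klf5 had 2 each. The mean over all genes was 1.65, and the territory lengths of the list were not compared.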

How the data were processed

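EP300 binding was measured by chromatin immunoprecipitation and sequencing in 2 libraries of 1 group. Per the notes deposited beside the files, the authors' reads were aligned to mm10 and they called peaks per library and on the pool, from which conservative (42473 peaks) and optimal (43988) sets were derived by the irreproducible discovery rate. Their software, an aligner and a caller, is not given in the sources used here. Each peak's signal is the value deposited by the authors, with no scaling stated, and was used to rank peaks within a list. Library and pooled lists hold 300000 peaks each, so single libraries were represented by their strongest 43988. No depth could be stated.

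Genes and start sites were those of the GENCODE vM21 basic set, and the 43972 optimal peaks on 21 chromosomes were used. All 43972 lay inside the chromosome lengths of the reference, and 658 of 658 promoter windows equalled it. Promoter sequences came from RefSeq (GRCm38.p6), which had 5 of the 8 genes and not Scgb1a1, Scgb3a2 or Foxj1.

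Counts were computed without a test, since there is 1 group and peaks are not replicates. The 8 genes and the lists were chosen with earlier results of these data known. Named were the 8 genes with their peaks, their neighbours, the 3 genes closest to Scgb1a1 in count and territory, and the 2 genes with most peaks in each list. Srp68 and Rps2-ps9 were added to these once their values had been seen. Assignment and motif code was tested on simulated data. No per-sample column (0) was left unused. Alternatives were other peak sets, libraries, distances, annotations, windows and promoter widths. The set of all GENCODE transcripts and the count outside Ahnak were chosen after seeing the data. Python 3.11.15, numpy 2.4.6, pandas 2.3.3, pysam 0.24.0 and matplotlib 3.10.9 were used.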

Additional observations from a re-analysis of the deposited data

How the results depend on the processing

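A count was taken as kept within 1.5 times its reported value. The median signal was taken as kept within 1.46, the SD of its ratio in the 2 libraries on the scale of the optimal set. By these limits 57 of 62 alternative values were kept and 5 moved. Not all 62 were free to move. No peak was given through a gene body alone, and the farthest lay 47.8 kb from its gene's start site. The settings without gene bodies and within 50 kb were thus bound to return the same values. The count for the 8 genes is also the sum of those for Scgb1a1 and the other 7, so these are not separate results. The peaks of the 8 genes ran from 15 to 27, those of Scgb1a1 from 11 to 22 and those of the other 7 from 4 to 6. Leaving out replicate 2 gave 22 peaks at Scgb1a1 and leaving out replicate 1 gave 21. Genes with a peak numbered 4, or 3 when noncoding genes also took peaks, since the Spdef peak then went to Rps2-ps9. A promoter limit of 2 kb gave 2 genes with a promoter peak, Cyp2f2 being added, and the stronger 50% of the optimal set gave 0. The median signal at Scgb1a1 was 57.8 in the conservative set. Windows of 200 bp gave 1 Scgb1a1 peak with a forkhead match. Outside Ahnak, Scgb1a1 had 3 peaks in the stronger 50%, and all GENCODE transcripts gave it 14 in all. The cause of these moves was not tested. No paired analysis was possible because there is 1 group. Depth was not given, so a gene without a peak shows only that none was called.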

Other observations

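The conservative set is not contained in the optimal set at the airway genes. It held 4 peaks that the optimal set did not: at Scgb1a1 chr19:9047654-9048077 with a signal of 34.4, chr19:9082468-9082891 with 36.8 and chr19:9106969-9107392 with 41.7, and at Scgb3a1 chr11:49658937-49659360 with 43.5. Each was weaker than the median of all optimal peaks. In the other direction, the weak Cyp2f2 peak at rank 60071 of the pooled list was in the optimal set only.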
